A study of Mus musculus with 8 samples.

Results

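The genes described here are 36 genes of the lysosome, the phagosome and autophagy, given as a list of names and not by a threshold on any value measured here. They comprise 10 lysosomal peptidases, 7 other hydrolases and cofactors, 6 proteins of the lysosomal membrane, 3 subunits of the proton pump, the transcription factor gene Tfeb with the damage-responsive gene Gpnmb, and 8 autophagy genes. On the array 35 of the 36 were found under their own name, and Tfeb was found under the older name Tcfeb. Of the 36 members, 33 passed the filter on dim probes and were tested among 23045 genes, and all 33 were well above background on all 8 arrays. Ctss and Atp6v0d2 were above background on 0 of 8 arrays, and Gpnmb on 4 of 8, 1 in each group.

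The cells were mature adipocytes differentiated from 3T3-L1, an established clonal mouse preadipocyte line, kept in medium with serum and antibiotics. Each of 4 groups had 2 arrays and was cultured for 72 h: a control given physiological saline and 3 groups given chrysotile, crocidolite or amosite at 10 mg/cm2, the unit being that of the labels. Chrysotile is a curled serpentine asbestos, and crocidolite and amosite are straight amphiboles. The labels give duplicate arrays without saying whether they came from separate cultures. A p-value here reflects the scatter between the 2 arrays of a group, pooled over the 4 groups and drawn towards the scatter of other genes. That scatter may be technical only. The 3 comparisons with saline share the same 2 control arrays.

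A lysosome is an acidic organelle that degrades material delivered by endocytosis, phagocytosis and autophagy. Its lumen holds cathepsins and other acid hydrolases, a vacuolar ATPase pumps in the protons these enzymes need, and heavily glycosylated proteins line its membrane. A phagosome formed around a particle matures by fusing with lysosomes, and an autophagosome formed around the cell's own material does the same. The factor TFEB moves into the nucleus when mTORC1 signalling falls or lysosomes are damaged, and binds a palindromic element in the promoters of many genes of the pathway. In fat cells the lysosomal acid lipase and autophagy also take part in the breakdown of stored lipid.

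The promoter windows of 6 members are shown because they carry the core of that element. In the RefSeq promoters (GRCm38.p6, 250 bases before to 50 bases after the start), 31 of the 36 members have an entry. Of these, 13 genes (41.9%) hold CACGTG, the core called an E-box, against 8.09% of all 27025 genes in the table. The longer TCACGTGA, which contains the core, is in 5 members (16.1%) and in 1.12% of all genes. The full palindrome of 10 bases, which adds a base at each end, is in 0 of the 31 members and in 0.37% of all genes. Of 154 further genes of the pathway, described below, 116 have an entry. Among these, 19% hold CACGTG, 8.62% TCACGTGA and 3.45% (4 genes) the full palindrome. All of these motifs read the same on both strands. The matches are letters in a window and not measured binding. Each window is printed 5′ to 3′ on the gene's own strand and ends before the start of transcription, with the matched motif in capitals.

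Lamp1, chr8:13159070-13159160, plus strand: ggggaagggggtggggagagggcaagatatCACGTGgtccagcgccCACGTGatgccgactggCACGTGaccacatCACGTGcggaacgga
Mcoln1, chr8:3500418-3500510, plus strand: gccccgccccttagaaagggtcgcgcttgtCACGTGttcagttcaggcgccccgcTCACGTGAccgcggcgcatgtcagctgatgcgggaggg
Ctsd, chr7:142387889-142387956, minus strand: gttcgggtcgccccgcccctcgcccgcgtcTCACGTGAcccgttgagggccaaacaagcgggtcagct
Atp6v1a, chr16:44139354-44139421, minus strand: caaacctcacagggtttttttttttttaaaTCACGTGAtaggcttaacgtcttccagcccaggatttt
Lgmn, chr12:102439106-102439171, minus strand: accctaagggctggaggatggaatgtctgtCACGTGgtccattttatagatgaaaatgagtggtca
Ctsl, chr13:64370721-64370770, minus strand: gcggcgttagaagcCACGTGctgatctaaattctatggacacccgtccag

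The Lamp1 window holds 4 copies of the core within 91 bases, and the Mcoln1 window 2. Lgmn has 2 promoter entries, and the entry not printed holds no CACGTG. The differences from saline were read for the tested members with and without the core. With chrysotile the median difference was 0.07 (log2) for the 13 tested members with CACGTG and 0.26 for the 16 without it, and with crocidolite the medians were 0.12 and 0.20. With amosite they were -0.00 and 0.03. For the 4 tested members without a promoter entry, Ctsh among them, the medians were 0.20, 0.18 and 0.02 with chrysotile, crocidolite and amosite. The part of the motif in these values was not tested. Among the printed genes, Lgmn and Ctsl had both arrays of chrysotile and of crocidolite above both saline arrays. Lamp1, Ctsd and Atp6v1a had differences of 0.03 to 0.12 with these fibres. Both crocidolite arrays of Atp6v1a also lay above both saline arrays, at 4.86 and 4.69 against 4.64 and 4.68. Mcoln1, which holds the longer motif too, had differences of 0.31 and 0.29 on arrays that overlapped with saline.

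All levels below are log2 intensities after subtraction of each array's 75th percentile, so 0 is the intensity of a probe at that percentile and a difference of 1 is a doubling. Between 56.2% and 62.8% of 55681 probes were well above background on an array. All 8 arrays were on 1 slide, where the row matched the group and the column the replicate number, so row and group cannot be told apart. Of the mature adipocyte markers, 10 of 10 were above background on every array. Of 12 macrophage markers, 5 to 9 were above background on an array, and Lyz2, Mrc1 and C1qa were below it on all 8. All 8 markers of preadipocytes or fibroblasts were above background on every array, and their median difference from saline was 0.11, 0.17 and -0.02 with chrysotile, crocidolite and amosite. Their summed level, in multiples of the 75th percentile, was higher on the replicate 1 array of each group: 446 and 348 with saline, 520 and 337 with chrysotile, 478 and 311 with crocidolite, and 492 and 324 with amosite. The part of these markers in the members' values was not tested. In bulk RNA, fewer cells of a type and less RNA per cell cannot be told apart.

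In limma's fit over all genes, adjusted with Benjamini-Hochberg, 0 of 33 members were called with chrysotile, crocidolite, amosite or the mean of the 3 fibres against saline, and 0 of 23045 genes (0%) were called in each. The same held for the 3 comparisons between fibres, where 0 members and 0% of genes were called. The values that follow therefore describe these arrays. With chrysotile the median difference of the members from saline was 0.16 against -0.01 over all genes, and 24 of 33 members lay above saline. With crocidolite it was 0.16 against -0.02, with 26 of 33 above, and with amosite 0.02 against -0.02, with 20 of 33 above. For the mean of the 3 fibres 27 of 33 members were above saline, with a median of 0.13 against -0.01.

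**Figure D1:**
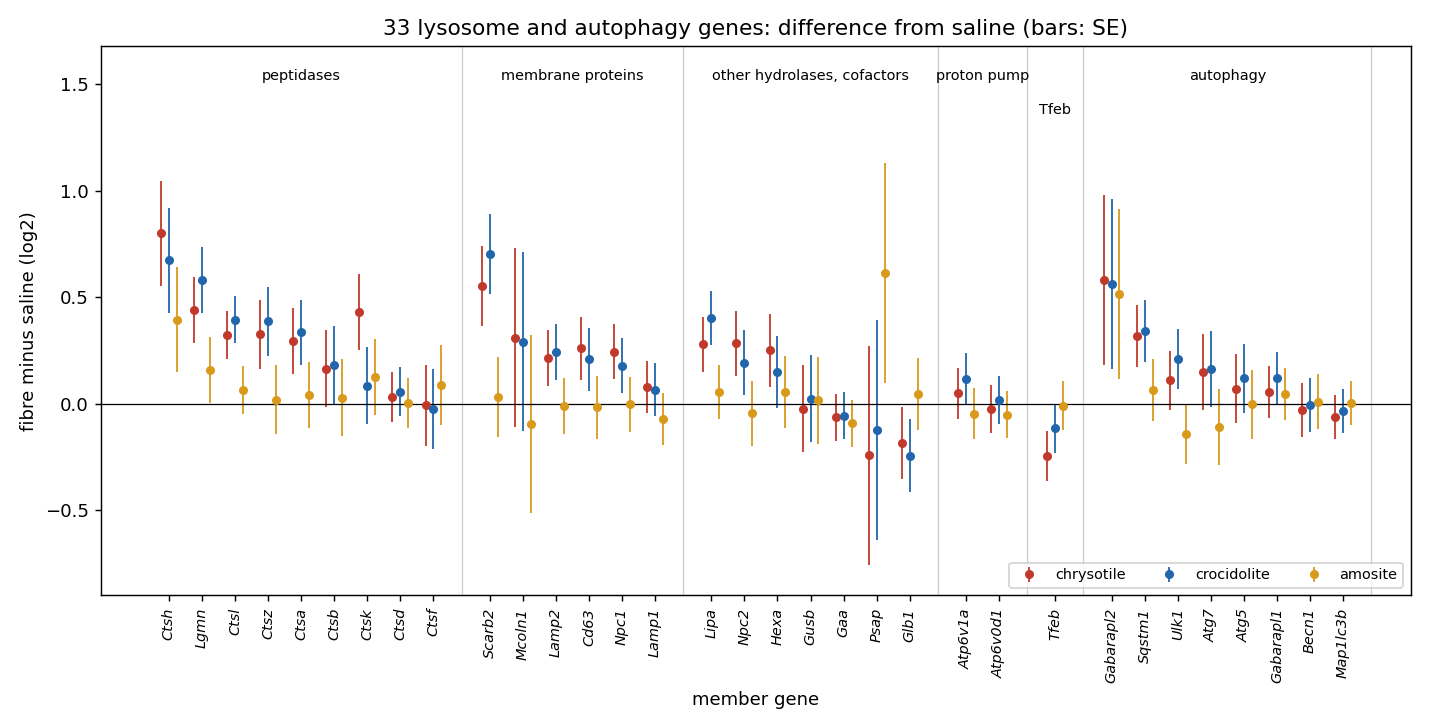
Difference from saline (log2, vertical axis) of the 33 tested members, grouped by role, for chrysotile (red), crocidolite (blue) and amosite (yellow); points are differences of group means of 2 arrays and bars their standard errors. Ctsh, Lgmn, Ctsl and Scarb2 lie above 0 with chrysotile and crocidolite, and the wide bars mark Gabarapl2, Psap and Mcoln1.

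Without adjustment, 4 of 33 members were higher than saline at p under 0.05 with chrysotile and 0 lower, where 2.82% of all genes were higher and 2.66% lower. With crocidolite 5 were higher and 0 lower, against 2.86% and 4.41% of all genes. With amosite there were 0 in either direction, against 1.08% and 1.58%, and with the mean of the fibres 4 higher and 0 lower, against 2.29% and 3.33%. Leaving out each array in turn, the count of higher members ranged from 0 (without chrysotile replicate 2) to 7 (without saline replicate 2) with chrysotile, from 1 (without crocidolite replicate 1) to 9 (without saline replicate 2) with crocidolite, from 0 to 2 (without amosite replicate 2) with amosite, and from 1 (without saline replicate 1) to 7 (without saline replicate 2) with the mean of the fibres. Without saline replicate 1, 1 member was lower with chrysotile, with crocidolite and with the mean. With the replicate number as a block the counts of higher members were 11, 8, 0 and 7, where 5.51%, 5.6%, 1.74% and 4.54% of all genes were higher. Both chrysotile arrays lay above both saline arrays for 13 members and below for 1, against 14.2% and 15.4% of all genes. The corresponding counts were 14 and 2 with crocidolite, against 14.6% and 19.9%. With amosite they were 0 and 2, against 8.2% and 12.9%. All 6 fibre arrays lay above both saline arrays for 0 members and below for 0, against 2.01% and 4.92% of all genes.

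These medians depended on which saline array was used. The members' median deviation from their own mean over the 8 arrays was -0.19 on saline replicate 1 and 0.05 on saline replicate 2. It was 0.02 and 0.13 with chrysotile, 0.06 and 0.12 with crocidolite, and -0.06 on both amosite arrays. Saline replicate 1 was the lowest of the 8 arrays for 14 of the 33 members, against 19.6% of all genes. Without saline replicate 1 the median differences were 0.03, 0.02 and -0.07 for chrysotile, crocidolite and amosite, with 19, 18 and 8 of 33 members above saline. Without saline replicate 2 they were 0.23, 0.29 and 0.12, with 29 of 33 above in each. The adipocyte markers also differed between the saline arrays, with a median deviation of -0.12 on replicate 1 and 0.30 on replicate 2. Against saline their median difference was -0.14 with chrysotile, -0.13 with crocidolite and -0.07 with amosite, and 1, 1 and 2 of 10 were above saline. Their part in the result was not tested.

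**Figure D2:**
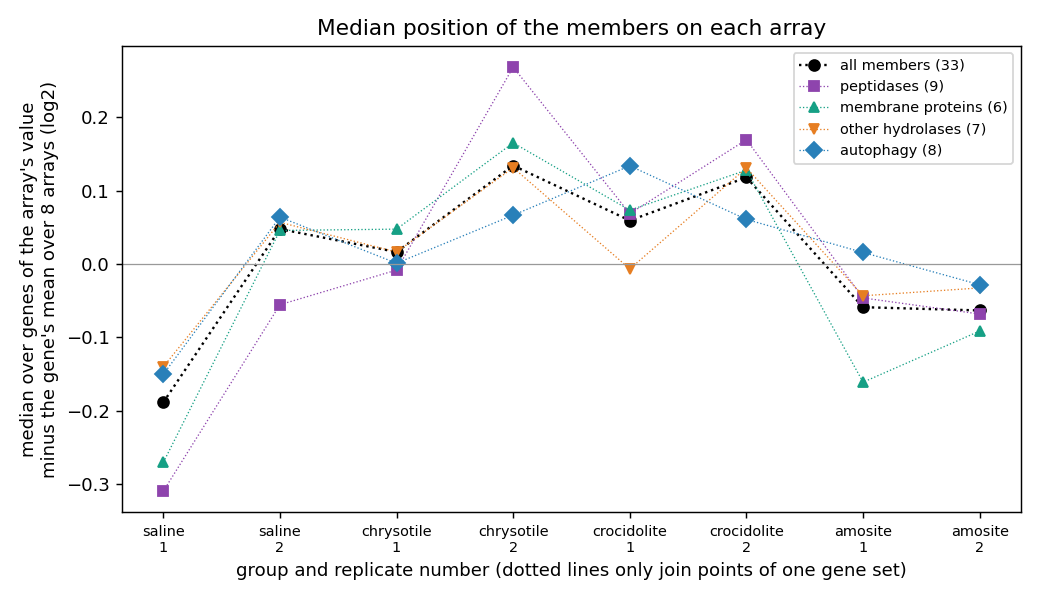
Median over the genes of each role of the array's value minus the gene's mean over the 8 arrays (log2), for the 8 arrays; colours and symbols mark the roles. Saline replicate 1 lies lowest for all members at -0.19, and saline replicate 2 lies at 0.05, between the chrysotile arrays at 0.02 and 0.13.

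Among the peptidases, 9 of 10 genes were tested and 8 of the 9 lay above saline with chrysotile, with a median difference of 0.32. With crocidolite 8 of 9 lay above, with a median of 0.33, and with amosite 9 of 9, with a median of 0.07. Of these 9 genes, 6 had both chrysotile arrays above both saline arrays and 5 had both crocidolite arrays above, against 14.2% and 14.6% of all genes. Without saline replicate 1 the peptidase medians were 0.20 with chrysotile, 0.24 with crocidolite and -0.06 with amosite, and without saline replicate 2 they were 0.40, 0.42 and 0.15.

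Ctsh encodes cathepsin H, an aminopeptidase that also processes surfactant protein in lung. The level of Ctsh (probe at chr9:89970828-89970887 on mm9, the build of the scanner files, as for the probes below; exon or UTR position was not analysed here) was -2.79 and -3.11 with saline, -2.16 and -2.15 with chrysotile, -2.11 and -2.44 with crocidolite, and -2.23 and -2.88 with amosite. The chrysotile and crocidolite arrays lay above both saline arrays, and amosite replicate 2 lay between the saline values. The chrysotile difference was 0.80 ± 0.25 (SE, n = 2 against 2; 1.74-fold; limma adjusted p = 0.897), the smallest unadjusted p of any member with this fibre. With crocidolite it was 0.67 ± 0.25 (adjusted p = 0.667) and with amosite 0.39 ± 0.25 (adjusted p = 1.0). The probe was dim, with an intensity of 39.4 to 105, and after normexp background correction the chrysotile difference was 0.30.

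Lgmn encodes legumain, an asparaginyl endopeptidase that cleaves the cathepsins into their mature 2-chain forms. The level of Lgmn (probe at chr12:103632415-103632474) was 4.24 and 4.35 with saline, 4.58 and 4.89 with chrysotile, 4.94 and 4.82 with crocidolite, and 4.57 and 4.34 with amosite. Both chrysotile and both crocidolite arrays were above both saline arrays, and amosite replicate 1 was level with the lower chrysotile array. The crocidolite difference was 0.58 ± 0.15 (1.5-fold; limma adjusted p = 0.57), with a 95% interval of 0.20 to 0.96. The chrysotile difference was 0.44 ± 0.15 (adjusted p = 0.897), and the amosite difference 0.16 ± 0.15 (adjusted p = 1.0).

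Ctsl encodes cathepsin L, an endopeptidase of broad specificity. The level of Ctsl (probe at chr13:64465287-64465346) was 6.51 and 6.52 with saline, 6.82 and 6.85 with chrysotile, 6.94 and 6.88 with crocidolite, and 6.67 and 6.50 with amosite. The saline arrays were nearly equal, and the crocidolite arrays were the highest. The differences were 0.32 ± 0.11 with chrysotile (adjusted p = 0.897), 0.39 ± 0.11 with crocidolite (1.31-fold; adjusted p = 0.59) and 0.07 ± 0.11 with amosite (adjusted p = 1.0).

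Ctsk encodes cathepsin K, a collagen-degrading protease best known from osteoclasts. The level of Ctsk (probe at chr3:95313165-95313224) was 2.60 and 3.01 with saline, 3.10 and 3.37 with chrysotile, 2.81 and 2.97 with crocidolite, and 2.92 and 2.94 with amosite. The chrysotile arrays were the 2 highest of the 8, and saline replicate 1 the lowest. The chrysotile difference from saline was 0.43 ± 0.18 (adjusted p = 0.897), against 0.09 ± 0.18 with crocidolite and 0.13 ± 0.18 with amosite.

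Ctsz and Ctsa, which encode carboxypeptidases, had both arrays of chrysotile and of crocidolite above both saline arrays. Their differences were 0.33 and 0.39 for Ctsz and 0.29 and 0.33 for Ctsa with chrysotile and crocidolite, and 0.02 and 0.04 with amosite. A dimmer probe of Ctsa gave 0.34, 0.37 and 0.33 for the 3 fibres. Ctsb, Ctsd and Ctsf, which encode the abundant endopeptidase cathepsin B, the aspartic protease cathepsin D and cathepsin F, had differences of 0.16, 0.03 and -0.01 with chrysotile and 0.18, 0.06 and -0.03 with crocidolite. The peptidases thus ranged from -0.01 to 0.80 with chrysotile and from -0.03 to 0.67 with crocidolite.

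**Figure D3:**
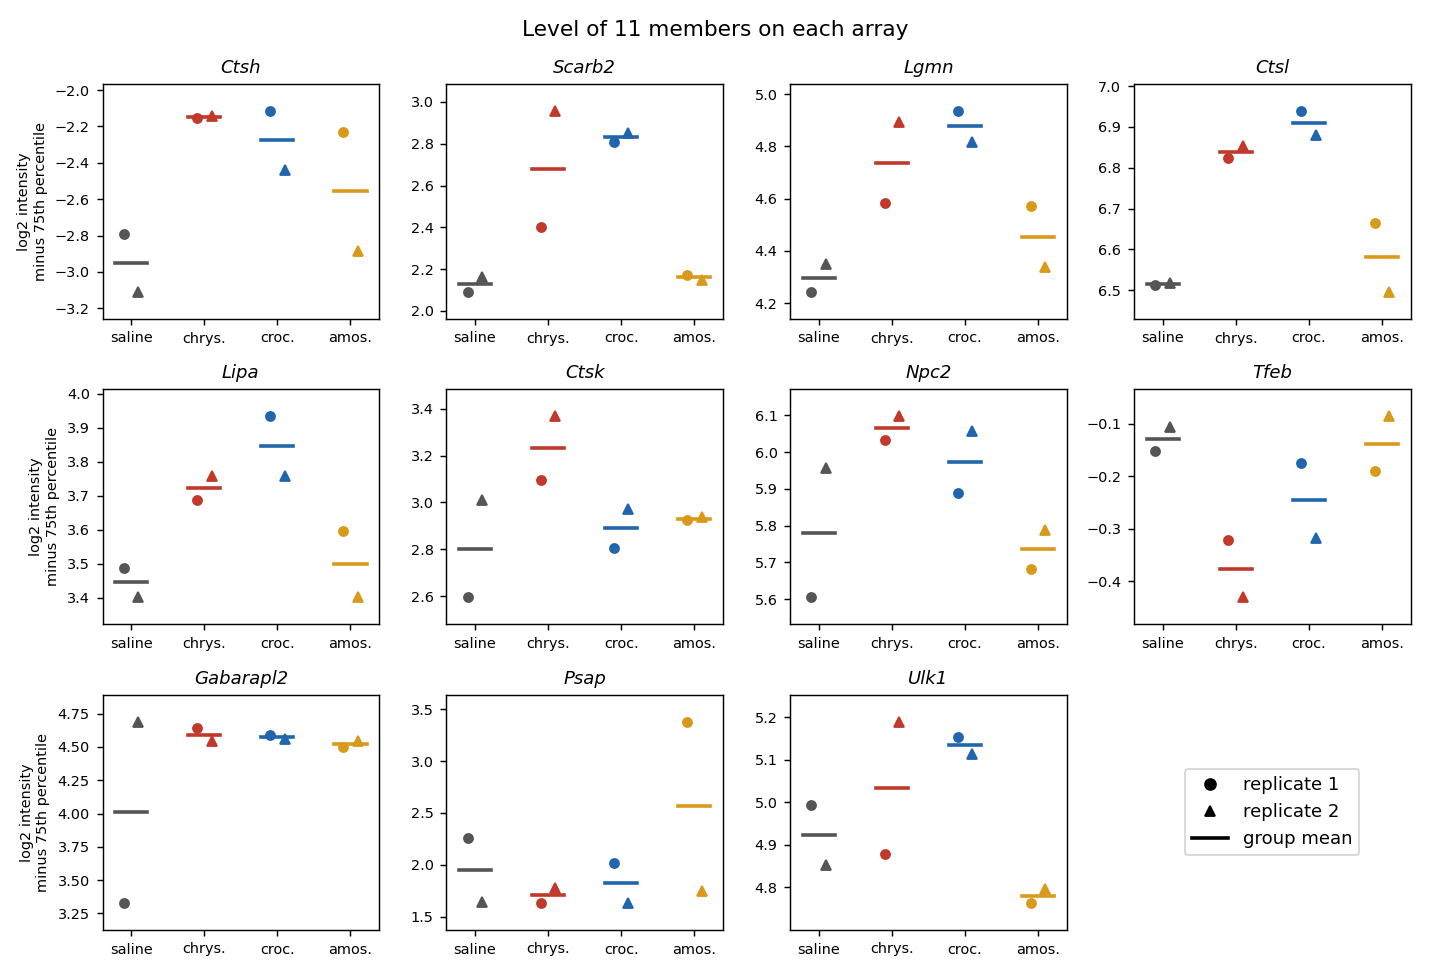
Level of 11 members (log2 intensity minus the array's 75th percentile, vertical axes of different range) on each array of the 4 groups; circles are replicate 1, triangles replicate 2 and bars the group mean of 2 arrays. Scarb2 and Ctsl separate chrysotile and crocidolite from saline, while saline replicate 1 stands apart in Gabarapl2 at 3.33 and amosite replicate 1 in Psap at 3.38.

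All 6 membrane proteins lay above saline with chrysotile, with a median of 0.25, and with crocidolite, with a median of 0.22. With amosite 1 of 6 did, with a median of -0.01. Against saline replicate 2 alone the medians were 0.08, 0.07 and -0.16, with 4, 4 and 1 of 6 above, and against saline replicate 1 alone 0.40, 0.38 and 0.10.

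Scarb2 encodes LIMP-2, the receptor that carries glucocerebrosidase to the lysosome. The level of Scarb2 (probe at chr5:92877611-92878944) was 2.09 and 2.16 with saline, 2.40 and 2.96 with chrysotile, 2.81 and 2.85 with crocidolite, and 2.17 and 2.15 with amosite. All 4 chrysotile and crocidolite arrays were above the saline and amosite arrays, which lay close together. The crocidolite difference was 0.70 ± 0.19 (1.63-fold, limma adjusted p = 0.57), the smallest unadjusted p of any member with any fibre. Over the 17 alternatives it ranged from 0.67 (without saline replicate 1) to 0.74 (without saline replicate 2). Many of them could not move it, such as the block, the variance prior and the omission of a chrysotile or amosite array. The filter and probe choice could not either, since Scarb2 had 1 probe, above background on all 8 arrays. The chrysotile difference was 0.55 ± 0.19 (adjusted p = 0.897), and 0.28 without chrysotile replicate 2 and 0.83 without chrysotile replicate 1. The amosite difference was 0.03 ± 0.19 (adjusted p = 1.0).

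Of the other membrane proteins, Cd63, a tetraspanin of late endosomes, had differences of 0.26 with chrysotile and 0.21 with crocidolite. Npc1, which exports cholesterol from the lysosome, had 0.24 and 0.18. Both fibres' arrays lay above both saline arrays for either gene, but with crocidolite the closest arrays were nearly equal. These were at -0.3117 (crocidolite replicate 1) and -0.312 (saline replicate 1) for Npc1. For Cd63 they were at 8.146 (crocidolite replicate 2) and 8.137 (saline replicate 2). Lamp2, a main glycoprotein of the membrane, had 0.21 and 0.24 by its brighter probe, and a dimmer probe gave 0.68, 0.69 and 0.53 with chrysotile, crocidolite and amosite, against -0.01 with amosite by the brighter probe. Lamp1, the other main glycoprotein, had 0.08 and 0.07. Mcoln1, a lysosomal calcium channel, had 0.31 ± 0.42 and 0.29 ± 0.42. The standard errors were wide since its level was lower on replicate 1 than on replicate 2, at 2.97 and 3.76 with saline and 2.73 and 3.81 with amosite. A dimmer probe of Mcoln1 gave -0.04, 0.00 and 0.23 with chrysotile, crocidolite and amosite.

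The 7 other hydrolases and cofactors showed no common direction, with medians of -0.02, 0.02 and 0.05 for chrysotile, crocidolite and amosite and 3, 4 and 5 of 7 above saline. Lipa encodes lysosomal acid lipase, which frees fatty acids and cholesterol from lipid delivered to the lysosome. The level of Lipa (probe at chr19:34567717-34567776) was 3.49 and 3.40 with saline, 3.69 and 3.76 with chrysotile, 3.93 and 3.76 with crocidolite, and 3.60 and 3.40 with amosite. The chrysotile and crocidolite arrays were above both saline arrays. The crocidolite difference was 0.40 ± 0.13 (1.32-fold; limma adjusted p = 0.628), the chrysotile difference 0.28 ± 0.13 (adjusted p = 0.897) and the amosite difference 0.05 ± 0.13.

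Npc2 encodes the soluble carrier that hands cholesterol to Npc1. The level of Npc2 (probe at chr12:86097947-86098006) was 5.6 and 5.96 with saline, 6.03 and 6.10 with chrysotile, 5.89 and 6.06 with crocidolite, and 5.68 and 5.79 with amosite. The chrysotile arrays were above both saline arrays, and the crocidolite arrays overlapped with them. The differences were 0.28 ± 0.15, 0.19 ± 0.15 and -0.05 ± 0.15 (adjusted p = 0.91, 0.82 and 1.0).

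Psap encodes prosaposin, the precursor of the saposins that help hydrolases act on sphingolipids. The level of Psap (probe at chr10:59764825-59764884) was 2.26 and 1.64 with saline, 1.64 and 1.78 with chrysotile, 2.02 and 1.64 with crocidolite, and 3.38 and 1.75 with amosite. Amosite replicate 1 stood alone above the other 7 arrays. The amosite difference was 0.61 ± 0.52 (adjusted p = 1.0), and -0.20 without amosite replicate 1. Of the remaining members of the group, Hexa, a subunit of beta-hexosaminidase, had 0.25 with chrysotile and 0.15 with crocidolite. Glb1, the lysosomal beta-galactosidase, had -0.18 and -0.24, with both crocidolite arrays below both saline arrays. Gusb, the beta-glucuronidase, had -0.02 and 0.02. Gaa, the acid alpha-glucosidase, had -0.06 and -0.06 by its brightest probe and -0.39 and -0.42 with chrysotile by 2 dimmer probes.

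The proton pump was represented by Atp6v0d1, a subunit of its membrane sector, and Atp6v1a, its catalytic subunit. Their differences were -0.02 and 0.05 with chrysotile, 0.02 and 0.12 with crocidolite, and -0.05 and -0.05 with amosite, each smaller than 1 standard error of 0.11 to 0.12. Atp6v0d2, an isoform known from osteoclasts and macrophages, was not well above background on any array, with intensities of 3.68 to 9.95.

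Tfeb itself had a mean at or below that of saline with each fibre. The level of Tfeb (probe at chr17:47929089-47929148) was -0.15 and -0.11 with saline, -0.32 and -0.43 with chrysotile, -0.17 and -0.32 with crocidolite, and -0.19 and -0.09 with amosite. Both chrysotile arrays and both crocidolite arrays lay below both saline arrays, while the amosite arrays lay on either side of them. The chrysotile difference was -0.25 ± 0.12 (limma adjusted p = 0.897), the crocidolite difference -0.12 ± 0.12 (adjusted p = 0.86) and the amosite difference -0.01 ± 0.12 (adjusted p = 1.0). Gpnmb, a membrane glycoprotein gene known as a sensitive marker of lysosomal stress, had intensities of 19.7 and 3.14 with saline, 14.2 and 30.1 with chrysotile, 15.5 and 16.2 with crocidolite, and 17.8 and 9.31 with amosite. These are at the limit of detection, and no fold change is given. Ctss, the cathepsin of antigen-presenting cells, had intensities of 4.09 to 5.33 and was not above background on any array.

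The 8 autophagy genes lay near saline, with medians of 0.09, 0.14 and 0.01 for chrysotile, crocidolite and amosite, and of -0.04, 0.01 and -0.06 without saline replicate 1. Sqstm1, which encodes the cargo receptor p62, had levels of 2.91 and 3.01 with saline, 3.21 and 3.35 with chrysotile, 3.24 and 3.37 with crocidolite, and 2.88 and 3.17 with amosite. Both arrays of chrysotile and of crocidolite were above both saline arrays, and amosite replicate 1 was below them. The differences were 0.32 ± 0.14, 0.34 ± 0.14 and 0.06 ± 0.14 (adjusted p = 0.897, 0.696 and 1.0), and a dimmer probe gave 0.17, -0.11 and -0.25.

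Gabarapl2 encodes an Atg8-family protein that is conjugated to the autophagosome membrane. The level of Gabarapl2 (probe at chr8:114476386-114476445) was 3.33 and 4.69 with saline, 4.64 and 4.54 with chrysotile, 4.59 and 4.56 with crocidolite, and 4.50 and 4.55 with amosite. Saline replicate 1 stood apart from the other 7 arrays, which lay close together. The differences of 0.58 ± 0.40, 0.56 ± 0.40 and 0.52 ± 0.40 (adjusted p = 0.916, 0.804 and 1.0) rest on that array, and the amosite difference was -0.16 without it. Without saline replicate 2 this gene was called with chrysotile (1.26, adjusted p = 0.0483) and with the mean of the fibres (1.23, adjusted p = 0.0274). It was the only member called in any of the alternatives tried.

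Ulk1 encodes the kinase that starts autophagy. The level of Ulk1 (probe at chr5:111213514-111213573) was 4.99 and 4.85 with saline, 4.88 and 5.19 with chrysotile, 5.15 and 5.11 with crocidolite, and 4.76 and 4.80 with amosite. Both crocidolite arrays were above and both amosite arrays below the saline arrays. The differences from saline were 0.11 ± 0.14, 0.21 ± 0.14 and -0.14 ± 0.14 (adjusted p = 0.953, 0.789 and 1.0). The lipidation gene Atg7 had 0.15, 0.16 and -0.11, and a dimmer probe of it gave -0.27, 0.09 and -0.04. Atg5, its partner in conjugation, had 0.07, 0.12 and -0.00. Gabarapl1 and Map1lc3b, of the Atg8 family, and Becn1, of the lipid kinase complex, lay between -0.06 and 0.12 with chrysotile and crocidolite.

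**Figure D4:**
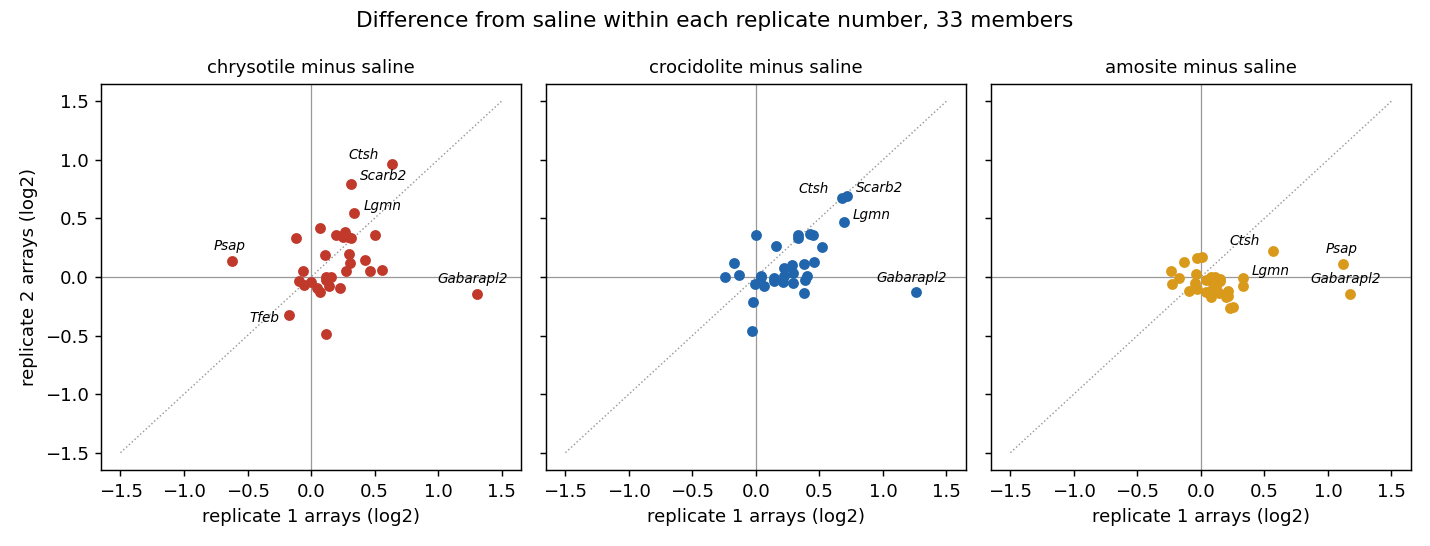
Difference from saline (log2) of the 33 members on the replicate 1 arrays (horizontal axis) and on the replicate 2 arrays (vertical axis), for chrysotile, crocidolite and amosite; the dotted line marks equal differences. Ctsh, Scarb2 and Lgmn lie above 0 in both pairs with chrysotile and crocidolite, and Gabarapl2 lies above 1 in pair 1 and below 0 in pair 2 with every fibre.

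Taken within the replicate numbers, the members lay higher relative to saline on the replicate 1 arrays than on the replicate 2 arrays. The median differences on the replicate 1 and replicate 2 arrays were 0.20 and 0.06 with chrysotile, 0.28 and 0.02 with crocidolite, and 0.09 and -0.05 with amosite. Both pairs were above 0 for 17, 18 and 5 of 33 members, and both below for 3, 4 and 5. Of all 23045 genes, 5495, 5759 and 4047 were above in both pairs, and 6077, 7391 and 6117 below. Of the 9 peptidases, 7, 5 and 3 were above 0 in both pairs with chrysotile, crocidolite and amosite. Their medians on the replicate 1 and replicate 2 arrays were 0.28 and 0.34 with chrysotile, 0.39 and 0.25 with crocidolite, and 0.15 and -0.02 with amosite.

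The fibres were then compared with each other. The saline arrays do not enter these differences. They do enter the standard errors, p-values and counts based on p, since all 8 arrays share the fit. For chrysotile minus crocidolite the median over the 33 members was -0.03. There were 0 members at an unadjusted p under 0.05, where 2.11% of all genes were higher and 0.642% lower, and 1 was higher with the replicate block, Ctsk, against 3.48%. The arrays did not overlap for 1 member above and 3 below, against 12.8% and 10.6% of all genes. Ctsk was the member above, at 0.34 ± 0.18 (limma adjusted p = 1.0), with a 95% interval of -0.09 to 0.78. The 3 below were Tfeb, Ctsl and Ctsd, at -0.13 ± 0.12, -0.07 ± 0.11 and -0.03 ± 0.12 (limma adjusted p = 1.0 for each). Lgmn and Lipa, whose arrays overlapped, were at -0.14 ± 0.15 and -0.12 ± 0.13, and Lgmn was at 0.02 without chrysotile replicate 1.

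Chrysotile lay above amosite for 26 of 33 members, with a median of 0.19 against 0.01 over all genes. Scarb2 was the 1 member higher at an unadjusted p under 0.05 and 0 were lower, against 2.62% of all genes higher and 1.71% lower, or 5 higher with the replicate block, against 5.43%. Both chrysotile arrays were above both amosite arrays for 15 members and below for 3, against 17.7% and 15.7% of all genes. Scarb2 differed by 0.52 ± 0.19, Npc2 by 0.33 ± 0.15, Ctsl by 0.26 ± 0.11 and Tfeb by -0.24 ± 0.12 (limma adjusted p = 1.0 for each). Scarb2 differed by 0.24 without chrysotile replicate 2 and by 0.80 without chrysotile replicate 1, and the count of higher members ranged from 0 to 4 without these same arrays. After quantile normalization the median was 0.10, with 21 of 33 members above amosite.

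Crocidolite also lay above amosite for 26 of 33 members, with a median of 0.15 against -0.01 over all genes. At an unadjusted p under 0.05, 5 members were higher and 0 lower, against 2.47% and 2.64% of all genes, and 8 were higher with the replicate block, against 5.2%. The higher count was 1 without crocidolite replicate 1. Both crocidolite arrays were above both amosite arrays for 19 members and below for 2, against 17.6% and 20.3% of all genes. Scarb2 differed by 0.67 ± 0.19 (limma adjusted p = 0.875), Lgmn by 0.42 ± 0.15, Lipa by 0.35 ± 0.13, Ulk1 by 0.35 ± 0.14 and Ctsl by 0.33 ± 0.11, each with a limma adjusted p of 0.875 or above. All 6 membrane proteins were higher with chrysotile and with crocidolite than with amosite, with medians of 0.26 and 0.24. After quantile normalization the median of crocidolite minus amosite over all members was 0.09, with 19 of 33 above amosite. The count of members higher at an unadjusted p under 0.05 was then 1, against 565 of 23045 genes. These 2 comparisons share the amosite arrays.

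Beyond the members, 154 further genes of the pathway were listed by role, and 147 were tested. Of these, 0 were called in any comparison, and the medians with chrysotile, crocidolite and amosite were 0.03, 0.08 and -0.01. At an unadjusted p under 0.05, 5 were higher and 0 lower with chrysotile, 6 and 0 with crocidolite, and 0 and 1 with amosite. The shares of all genes that were higher at this threshold were 2.82%, 2.86% and 1.08%, so the counts of higher genes among the 147 lie near the background. The shares of all genes that were lower were 2.66%, 4.41% and 1.58%. With the replicate block 11 were higher and 3 lower with chrysotile, 12 and 3 with crocidolite, and 0 and 2 with amosite. Of all genes, 5.51%, 5.6% and 1.74% were then higher, and 4.99%, 7.74% and 2.8% lower. The medians by role with chrysotile and crocidolite were 0.00 and 0.10 for 32 other hydrolases, 0.10 and 0.11 for 14 pump subunits, -0.12 and 0.06 for 18 membrane and sorting proteins, and -0.03 and 0.04 for 30 other autophagy genes. They were -0.02 and 0.08 for 19 genes of the TFEB family and mTORC1, 0.17 and 0.15 for 23 phagocytic receptors and phagosome genes, and 0.12 and 0.06 for 11 damage sensors and cathepsin inhibitors.

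Lgals3, which encodes galectin-3, a lectin that gathers on ruptured lysosomes, had levels of 5.16 and 5.07 with saline, 5.75 and 5.92 with chrysotile, 6.02 and 5.79 with crocidolite, and 5.37 and 5.03 with amosite. The chrysotile and crocidolite arrays did not overlap with saline. The crocidolite difference was 0.80 ± 0.16 (limma adjusted p = 0.497) and the chrysotile difference 0.73 ± 0.16 (adjusted p = 0.882). Ctsc, which encodes the dipeptidyl peptidase cathepsin C, was at -0.79 and -0.88 with saline and at -0.02 and -0.13 with crocidolite, a difference of 0.76 ± 0.16 (adjusted p = 0.506). Vmp1, which acts in autophagosome formation, was 0.60 ± 0.14 above saline with crocidolite (adjusted p = 0.562). The SNARE gene Stx3 was 0.52 ± 0.12 above with chrysotile, and Calr, the ER chaperone calreticulin that also serves as an uptake signal, 0.49 ± 0.16 with crocidolite. Ncf1, a subunit of the phagocyte oxidase, had a difference of -0.76 ± 0.23 with amosite, on a dim probe above background on 7 of 8 arrays.

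Markers of macrophages, cells rich in lysosomes, were set beside these values. Of the 12 in the list, 6 passed the filter, and their median difference from saline was 0.30 with chrysotile, 0.24 with crocidolite and 0.02 with amosite. Cd68, itself a lysosomal membrane glycoprotein, had levels of -1.05 and -1.0 with saline, -0.37 and -0.48 with chrysotile, -0.46 and -0.77 with crocidolite, and -0.72 and -1.06 with amosite, and its chrysotile difference was 0.60 ± 0.17 (limma adjusted p = 0.897). Cd14, the lipopolysaccharide co-receptor, was 0.96 ± 0.30 above saline with crocidolite (adjusted p = 0.624). Of the 6 markers, 4 were above saline with chrysotile and with crocidolite and 3 with amosite. Csf1r, the receptor for the macrophage growth factor, had differences of -0.45, -0.37 and -0.46 with chrysotile, crocidolite and amosite, and all 6 fibre arrays were below both saline arrays. Mpeg1, a pore-forming protein of phagocytes, had differences of 0.96 ± 0.82, 0.99 ± 0.82 and -0.31 ± 0.82. The summed level of the list was 66.7 and 74.1 with saline, 65.3 and 75.5 with chrysotile, 61.8 and 69.4 with crocidolite, and 62.4 and 66.7 with amosite, and Lyz2, Mrc1 and C1qa were below background throughout. The part of these markers in the members' values was not tested.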

How the data were processed

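Total RNA was measured on 1-colour Agilent mouse arrays (Cy3). Per the file headers, the deposited values are intensity per spot read with Feature Extraction 10.7.1.1 (version 10.7 per the submitters' processing notes), background-subtracted by the scanner software, with probes placed on mm9. The authors' deposited value table holds the same intensity, with a largest difference of 0.

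From the deposited intensity, log2 values minus each array's 75th percentile over probes were computed. Control spots and 99 to 183 spots an array with outlier flags were left out, and 9 probes lacking a spot were dropped. A probe passed if well above background on both arrays of at least 1 group (33042 probes), and the brightest stood for its gene. One limma fit of all 8 arrays (R 4.3.3, limma 3.58.1, the data.table package in version 1.17.8; 4 residual and 2.22 prior degrees of freedom) gave 7 comparisons, two-sided, adjusted over 23045 genes at 0.05. With 2 arrays against 2, an exact permutation test of single values cannot go below 0.333 and was not used. The number of arrays limits the precision.

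The members and lists were chosen with earlier results of these data known. The genes given on every array are, in each comparison, the 4 members with the smallest unadjusted p, and others serve as examples. From each list of further genes up to 3 with the smallest p were taken, of which some are printed. Same-numbered arrays deviated together over all genes (correlations 0.25 to 0.45 in the 6 pairs of groups). Over the members the correlations ranged from -0.0019 (saline and chrysotile) to 0.77 (crocidolite and amosite). The number matched the slide column, so paired cultures and a column effect cannot be told apart. The printed standard errors and adjusted p come from the fit without a block. The fit with the number as a block is given where counts moved. On data simulated for chrysotile against saline over 23045 genes, the fit called 27 of the 67 genes given a log2 difference of 1, 64 of the 67 given 2 and 65 of the 66 given 4, besides 2 unchanged genes. The simulated noise was independent between arrays, without the shared deviation of same-numbered arrays. No difference under 1 was simulated, and the largest member difference with chrysotile was 0.80. The simulation therefore does not show how often differences of the members' size are called. Alternatives covered background correction, normalization, filter, probe choice, variance prior, samples fitted and each array left out. Figures were drawn with matplotlib 3.10.9.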

Additional observations from a re-analysis of the deposited data

Results flagged for a closer look

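Ulk1 lay above saline on both crocidolite arrays and below saline on both amosite arrays, with mean differences of 0.21 and -0.14. The difference between these fibres, tested in the same limma fit, was 0.35 ± 0.14 (unadjusted p = 0.0431, adjusted p = 0.952), so it did not pass the threshold.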

How the results depend on the processing

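Of the counts of calls and medians recomputed for the comparisons, 320 stayed within the limits set for them and 34 moved further. For a median the limit was the standard deviation of its replicate-pair medians, and direction was not checked. Without saline replicate 1 the members' median against saline went from 0.16 to 0.02 with crocidolite and from 0.02 to -0.07 with amosite. Both were within this limit. Among the named members' values and counts, 657 kept their direction and side of the threshold or stayed within the limits, 48 moved and 3 turned direction. The totals of kept values include alternatives that could not change them, such as the authors' deposited values, which are the same intensity. They also include the block and the variance prior, which leave the size of a difference as it is. With the replicate block the count of genes called stayed at 0 in all 7 comparisons, and no call of a member changed. The block raised the members at an unadjusted p under 0.05 to 11, 8 and 7 with chrysotile, crocidolite and the mean of the fibres. It raised them to 1, 5 and 8 for chrysotile against crocidolite, chrysotile against amosite and crocidolite against amosite.

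Quantile normalization called 3 genes with chrysotile, 2 with crocidolite, 2 with amosite and 2 with the mean of the fibres, none of them a member, and moved the medians of the members to 0.0987 for chrysotile against amosite and 0.0929 for crocidolite against amosite. The mean of all probes of a gene called 1 gene with the mean of the fibres and gave a median of 0.132 for chrysotile against amosite. Leaving out each array in turn, the genes called ranged from 0 to 66 with chrysotile, 0 to 51 with crocidolite, 0 to 58 with amosite and 0 to 187 with the mean of the fibres, each highest without saline replicate 2, and from 0 to 1 for chrysotile against crocidolite and against amosite. Members called ranged from 0 to 1 with chrysotile and with the mean of the fibres. The members' medians ranged from 0.0266 to 0.266 with chrysotile, -0.0731 to 0.123 with amosite, -0.0189 to 0.201 with the mean of the fibres, -0.0731 to 0.0212 for chrysotile against crocidolite, 0.111 to 0.258 for chrysotile against amosite and 0.109 to 0.172 for crocidolite against amosite.

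Leaving out 1 array turned the direction of Gabarapl2 with amosite (from -0.164 without saline replicate 1 to 1.2 without saline replicate 2), Psap with amosite (-0.199 without amosite replicate 1 to 1.43 without amosite replicate 2) and Lgmn for chrysotile against crocidolite (-0.294 without chrysotile replicate 2 to 0.0162 without chrysotile replicate 1). Of all genes at an unadjusted p under 0.05 with chrysotile, 51.5% were higher, and 34.4% after normexp correction, 21.3% without the filter on dim probes; the cause was not tested. The comparison with the mean of the 3 fibres could not be refitted on only the groups compared, since it uses all 4. Dim probes such as that of Ctsh limit the precision.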
